A study of Mus musculus with 6 samples.

Results

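The DnaJ proteins, or J proteins, are co-chaperones that hand client proteins to Hsp70 and trigger its ATP hydrolysis through a conserved J domain. By domain layout they are sorted into class a, with a J domain, a glycine- and phenylalanine-rich stretch and zinc-finger repeats, class b, without the zinc fingers, and class c, which shares the J domain only. Neurons rely on several of them at the synapse, where a class c member guards vesicle proteins and another strips clathrin from recycled vesicles. The genes described here are the rows of the expression table whose symbol begins with Dnaja, Dnajb or Dnajc followed by a number, without Dnajb1, Dnajb5, Dnajb9, Dnajb11 and Dnajc3, which respond to heat shock or stress of the endoplasmic reticulum or were set aside with those genes. This left 36 of the 16060 rows, with 4 members in class a, 8 in class b and 24 in class c, all annotated as protein coding. The rule itself uses names and no measured value, but it was written with earlier results of these data known.

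RNA of the hippocampus was sequenced from adult male C57BL/6 mice, with 1 library per mouse. The Control group held 3 mice given saline and the MA group 3 mice given methamphetamine (MA) by injection, at 5 mg/kg in week 1, 10 mg/kg in week 2 and 15 mg/kg in week 3. Behavioral tests followed on day 22, and the mice were killed right after them. No group carried a genetic change. The deposited values were taken as log2 with an offset of 1, which was inferred from the values, and all values below are on this scale unless they are called back-transformed. The table gives no read totals, and sequencing depth is therefore unknown. Groups were read from the column names, which match the sample titles, and MA library means a library labelled MA throughout, so each direction given rests on those names. Whether the names sit on the right libraries could not be settled. Fos, Egr1, Arc and Nr4a1, immediate early genes known to respond to MA and looked at here after their values were seen, were lower in every MA library than in every Control library, with Fos between 2.22 and 2.69 in MA and between 3.78 and 4.30 in Control. The study reports these genes as raised by MA, in its sequencing and by qPCR, which is the opposite direction. If the names were exchanged, every direction below would turn.

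Before any comparison, the library labelled MA replicate 3 stood apart. A gene was tested when 3 or more of the 6 libraries reached 0.5 on the back-transformed scale, which 13321 genes did. MA replicate 3 was the highest or the lowest library in 55.4% of them, against 18.7% to 38.2% for each other library. Neuronal, astrocyte, oligodendrocyte and microglial markers were detected, with no marker at 0 in all libraries. Markers of choroid plexus, the epithelium that makes cerebrospinal fluid beside the hippocampus, summed to 64.5 to 418 back-transformed units in the Control libraries and to 1770 to 5070 in the MA libraries, and all 5 markers were above every Control library in every MA library, 3 of them (Kl, Folr1 and Clic6) at an adjusted p under 0.05 (limma). With replicate numbers blocked, Kl and Folr1 had adjusted p-values of 0.0979 and 0.106, Clic6 still passed at 0.0441 and Ttr, at 0.0887 before, passed at 0.0227. Thalamic markers summed to 31.7 to 50.4 in the Control libraries, 107 and 104 in MA replicates 1 and 2 and 55.9 in MA replicate 3. Calb2 had the highest value of these markers in each MA library, at 5.98, 5.61 and 5.21 on the log2 scale. All 6 lay above every Control library in MA replicates 1 and 2, and only Calb2 and Lhx9 did in MA replicate 3. In bulk tissue, more cells of a type and more RNA per cell cannot be told apart.

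No member passed the test between the groups. Of the 36 members, 35 were abundant enough to be tested, and 0 had an adjusted p under 0.05 (limma, Benjamini-Hochberg over 13321 genes), where 0.263% of all tested genes did. At an unadjusted p under 0.05 the count was also 0 of 35, against 10.4% of all tested genes. Log2 fold changes, given as MA minus Control, ran from -0.39 to 0.33 with a median of -0.02, and over all tested genes the median was -0.01. On this scale, with its offset, the change of scarce genes is understated. Of the 35 members, 20 were lower and 15 higher in MA, where 52.7% of all tested genes were lower. The groups did not overlap for 2 members, Dnajc14 and Dnajc21, both lower in MA. That compares with 17.5% of all tested genes in either direction and 10.2% with MA lower. The 95% interval of a member reached 0.17 to 0.70 to either side of its log2 fold change, with a median of 0.29, and over all tested genes the median was also 0.29. All 35 intervals include 0, all lie within -1 to 1, and 27 lie within -0.5 to 0.5. With 3 mice a group, differences inside these intervals remain possible.

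**Figure D1:**
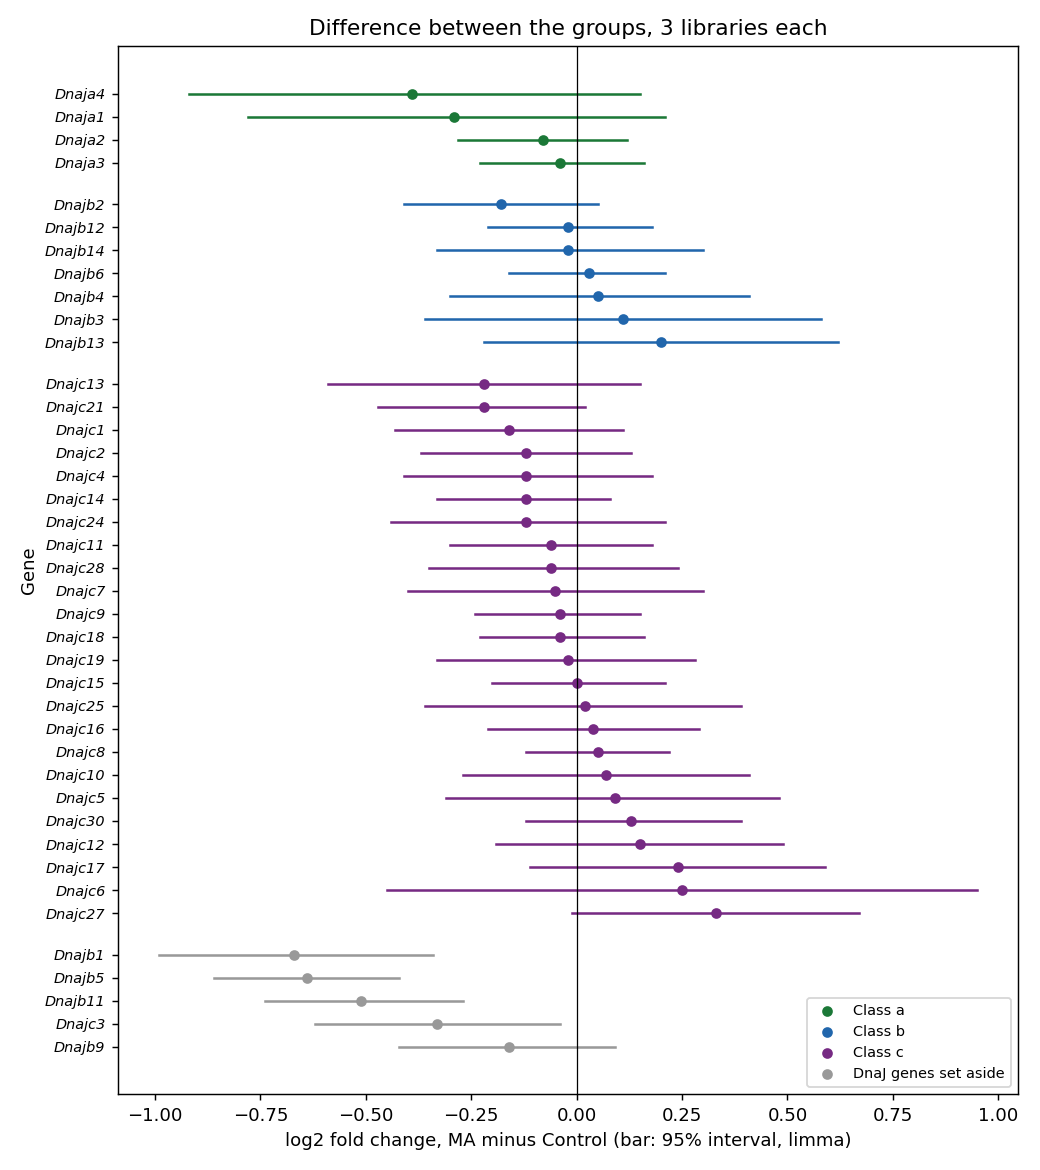
Log2 fold change, MA minus Control, on the x axis for each gene on the y axis, with points for the fitted value and bars for the 95% interval (limma, 3 libraries a group). The 35 tested members of classes a, b and c all have intervals that include 0, while 4 of the 5 DnaJ genes set aside, in grey, have intervals below 0.

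The partners of these co-chaperones were read from lists fixed by gene family. All 5 DnaJ genes set aside had a lower mean in MA (median -0.51 on the log2 scale). Of these, 4 had an unadjusted p under 0.05 and no overlap of the groups, though none passed the adjusted threshold (limma). Dnajb5, a class b gene, had the smallest p of them, at -0.64 ± 0.10 (SE). Its adjusted p was 0.0628 by limma, 0.293 when replicate numbers were blocked and 0.0392 without MA replicate 3, when Dnajb11 also passed at 0.0274. Of 15 Hsp70 family genes, 13 were lower and 2 higher, 7 had an unadjusted p under 0.05, all lower, and 1 passed the adjusted threshold. This was Hspa5, the Hsp70 of the endoplasmic reticulum, at 7.26 ± 0.23 (SD, n = 3) in Control and 6.36 ± 0.07 (SD, n = 3) in MA, a difference of -0.90 ± 0.12 (SE). Its adjusted p was 0.0403 by limma and 0.115 when replicate numbers were blocked, and 0 of all tested genes passed without Control replicate 2, without Control replicate 3 or without MA replicate 2. Among 13 nucleotide exchange factors and other Hsp70 cofactors, 9 were lower and 4 higher with a median of -0.04, and 1, Stip1, which links Hsp70 to Hsp90, had an unadjusted p under 0.05, at -0.27 (limma adjusted p = 0.277). The 4 Hsp90 genes had a median of -0.09 and none reached an unadjusted p under 0.05. Hsp90b1, the Hsp90 of the endoplasmic reticulum, was closest at -0.23 (limma adjusted p = 0.488).

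The letters of heat shock and stress elements were searched in the promoters, because such elements mark many stress-induced chaperone genes. RefSeq promoters on GRCm38.p6, from 250 bases before to 50 after an annotated start, were matched for 30 of the 36 members. A gene can have more than 1 start. The 30 members had 40 promoters and all 27025 genes had 32851, and a gene was counted when any of its promoters matched. A heat shock core, GAANNTTC or TTCNNGAA on either strand, was found in 6 of the 30, or 20%, and in 17% of all 27025 genes with a promoter there. The endoplasmic reticulum stress element, CCAAT followed by 9 bases and CCACG, was in 0 of the 30 and in 0.137% of all genes. The full cAMP response element TGACGTCA was in 1, Dnajc27, or 3.33%, against 2.03%. The shorter TGACG, which lies within it, was in 16 members, or 53.3%, against 23%, and the GC box GGGCGG was in 20, or 66.7%, against 38.2%. The members' promoters also had more G and C, with a median of 62% against 52.7% over all promoters, and the part of base composition in these shares was not tested. Shown next, 5′ to 3′ on the gene's strand with the matched letters in capitals, are stretches before a RefSeq start of 3 members with a heat shock core, the most abundant of classes a and b and the member with the lowest fold change. The stretches of these 3, Dnaja1, Dnajb6 and Dnaja4, lie inside the bounds of the gene in GENCODE. Dnajc27 is added because it had the highest log2 fold change at this offset and holds the cAMP element. It also has a heat shock core, 213 bases before the start and outside the stretch shown.
Dnaja1, plus strand of chr4:40722318-40722367: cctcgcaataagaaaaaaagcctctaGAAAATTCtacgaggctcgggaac
Dnaja4, plus strand of chr9:54699449-54699528: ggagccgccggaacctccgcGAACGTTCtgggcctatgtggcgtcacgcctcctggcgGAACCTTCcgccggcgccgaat
Dnajb6, plus strand of chr5:29735823-29735882: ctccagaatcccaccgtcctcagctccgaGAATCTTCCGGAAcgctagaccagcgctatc
Dnajc27, plus strand of chr12:4082514-4082573: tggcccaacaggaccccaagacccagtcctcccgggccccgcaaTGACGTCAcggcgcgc
The capitals of Dnajb6 hold both forms of the core, which share 3 bases, and those of Dnaja4 hold 2 separate copies. A match of these letters is a description of the sequence and not evidence of a bound factor.

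All 4 members of class a had a lower mean in MA, and none passed the test. Their median log2 fold change was -0.18, and -0.04 without MA replicate 3. Dnaja1, the main cytosolic class a partner of Hsp70, had the highest level of all members, with a mean back-transformed value of 157 that exceeded 96.1% of tested genes. It was 7.50, 7.24 and 7.51 in Control replicates 1, 2 and 3 and 7.40, 7.39 and 6.61 in MA replicates 1, 2 and 3. MA replicates 1 and 2 thus lay within the Control range and MA replicate 3 lay 0.81 below the Control mean. The log2 fold change of -0.29 (95% interval -0.78 to 0.21, limma adjusted p = 0.704) became -0.02 without that library. Dnaja1 is uncertain for another reason, since 3 processed pseudogenes match its transcript at 97.1% to 99.4% over 1194 bases and 10.8% of its exonic bases are shared with other genes.

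Dnaja4, a related cytosolic co-chaperone found mostly in heart, testis and brain, was 4.55, 4.01 and 4.68 in the Control libraries and 3.87, 4.44 and 3.77 in the MA libraries. Both groups had an SD of 0.36, and MA replicate 2 was above Control replicate 2, so the groups overlapped. Its log2 fold change of -0.39, the lowest of the 35, had a 95% interval of -0.92 to 0.15 (limma adjusted p = 0.619), and was -0.26 without MA replicate 3. Of its exonic bases, 44.1% lie under exons of Wdr61 on the other strand, and the sources used here do not state whether reads were counted by strand. Dnaja2, the other cytosolic member, was 5.96 ± 0.11 (SD, n = 3) in Control and 5.88 ± 0.06 (SD, n = 3) in MA. Dnaja3, the mitochondrial member also known as Tid1, was 4.62 ± 0.09 and 4.59 ± 0.03 (SD, n = 3 each). Their log2 fold changes were -0.08 (95% interval -0.28 to 0.12) and -0.04 (95% interval -0.23 to 0.16), each less than the SD of the Control group.

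**Figure D2:**
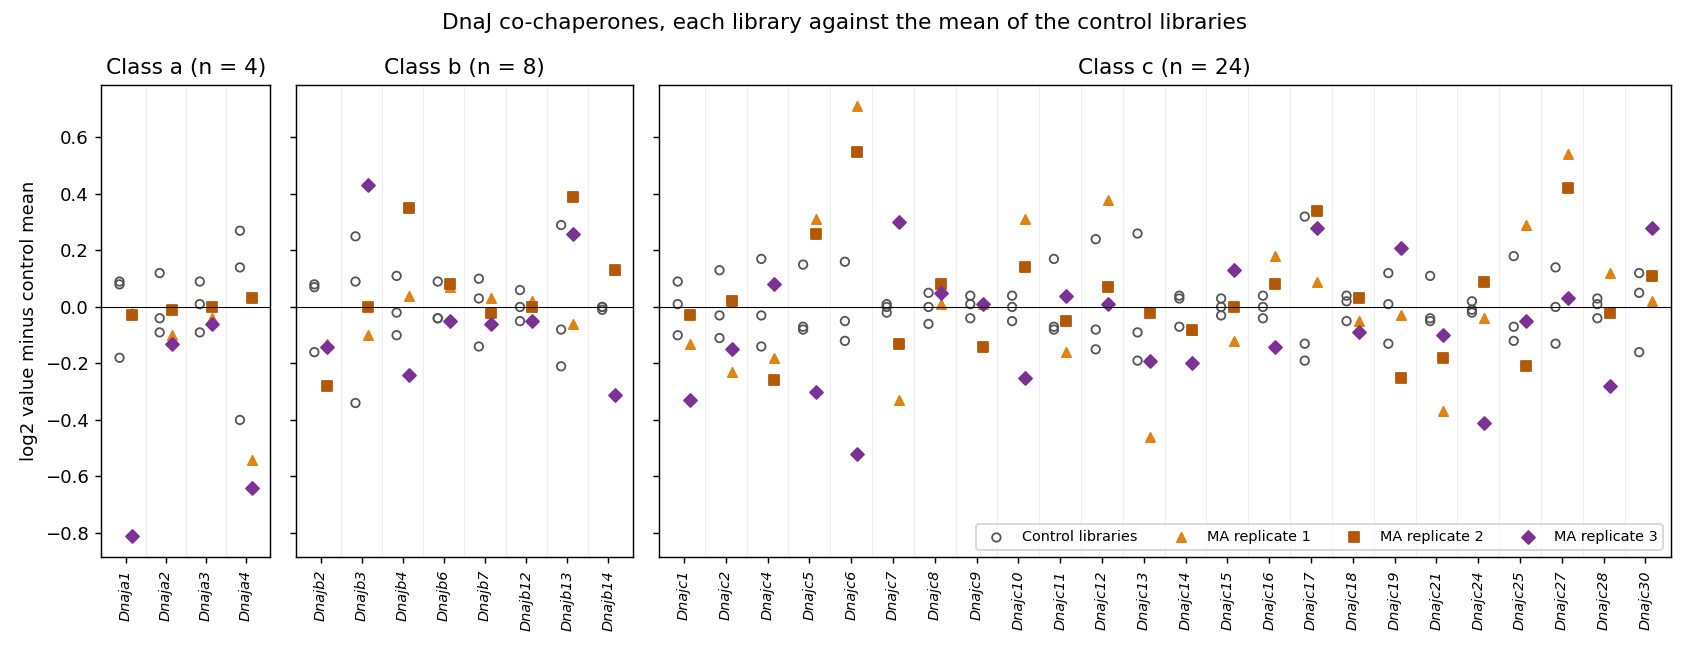
Each library's log2 value minus the Control mean of that gene, on the y axis, for the 36 members by class on the x axis. Open circles are the 3 Control libraries and filled marks the 3 MA libraries. MA replicate 3, the diamond, is the lowest library for 16 of the 35 tested members (29.8% of all tested genes) and the highest for 5 (25.6%), and lies furthest below the Control mean for Dnaja1, Dnaja4 and Dnajc6.

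Class b ranged from a ubiquitous aggregation guard to genes of the germ line. Of the 7 tested members 4 were higher and 3 lower, and their median difference was 0.03 on the log2 scale. Dnajb6, which keeps polyglutamine and other amyloid-prone proteins soluble, was the most abundant, at 6.73, 6.60 and 6.60 in Control and 6.71, 6.72 and 6.59 in MA. All 6 libraries lay between 6.59 and 6.73, and the log2 fold change was 0.03 (95% interval -0.16 to 0.21, limma adjusted p = 0.939). Reads of Dnajb6 can be split with 5 processed pseudogenes that match it at 97.1% to 99.6% over 696 to 722 bases. Dnajb2, a neuron-enriched member that sorts ubiquitylated clients for the proteasome, was 5.45, 5.69 and 5.68 in Control and 5.48, 5.33 and 5.47 in MA. Only Control replicate 1 fell within the MA range. Its log2 fold change was -0.18 (95% interval -0.41 to 0.05, limma adjusted p = 0.584).

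Dnajb4, a heat-inducible relative of Dnajb1, was 4.64, 4.56 and 4.77 in Control and 4.70, 5.01 and 4.42 in MA. The MA libraries enclosed the Control libraries on both sides, and the log2 fold change of 0.05 turned to -0.10 without MA replicate 2. Dnajb12 and Dnajb14, membrane proteins of the endoplasmic reticulum with the J domain in the cytosol, both had a log2 fold change of -0.02. Dnajb12 was even in all 6 libraries, from 3.67 to 3.78. Dnajb14 was 3.39, 3.40 and 3.40 in Control and 3.53, 3.53 and 3.09 in MA, so that MA replicates 1 and 2 lay above each Control library and MA replicate 3 below each. Reads of Dnajb14 are uncertain, since a stretch of its transcript matches transcripts of many other genes at 95% or more over 200 bases. The members known from testis and cilia were scarce. Dnajb3, a single-exon gene, was 1.26 ± 0.31 in Control and 1.37 ± 0.28 in MA (SD, n = 3 each). Dnajb13, a part of motile cilia, was 0.69, 0.19 and 0.32 in Control and 0.34, 0.79 and 0.66 in MA. Its log2 fold change of 0.20 (95% interval -0.22 to 0.62) became 0.60 with an offset of 0.1 (limma adjusted p = 0.741). Exons of Ucp2 on the other strand cover 11.2% of the exonic bases of Dnajb13, whose mean back-transformed value was only 0.428. The sum of 5 ependymal markers, genes of the ciliated cells lining the ventricle, was 45, 27.9 and 28 in the Control libraries and 31.5, 43 and 55.2 in the MA libraries. Both were higher in Control replicate 1 than in the other Control libraries and lower in MA replicate 1 than in the other MA libraries, and the part of these cells in Dnajb13 was not tested. Dnajb7 was not tested, with values of 0.24, 0.00 and 0.17 in Control and 0.17, 0.12 and 0.08 in MA.

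Class c members with a role at vesicles and endosomes included Dnajc27 and Dnajc6, with the 2 highest log2 fold changes of the set at the offset of 1. With an offset of 0.1 they were at 0.34 and 0.25, below the scarce Dnajb13 at 0.60. Dnajc27 was picked for description after its values were seen. Dnajc6, or auxilin, brings Hsp70 to clathrin-coated vesicles and is enriched in neurons. It was 5.03, 5.10 and 5.31 in Control and 5.86, 5.70 and 4.63 in MA. MA replicates 1 and 2 lay above every Control library and MA replicate 3 lay below every one. The 1.15 between MA replicate 3 and the mean of the other two was the widest such gap of any member. The log2 fold change over all 3 MA libraries was 0.25 (95% interval -0.45 to 0.95, limma adjusted p = 0.838), and without MA replicate 3 it was 0.63 with an adjusted p of 0.0423 (limma), where 1.93% of all tested genes passed. It was 0.01 without MA replicate 1, 0.10 without MA replicate 2, and 0.54 with an adjusted p of 0.0822 with limma's sample quality weights, which gave MA replicate 3 a weight of 0.194. Dnajc27, a small Rab-like GTPase with a J domain, was 3.98, 4.11 and 4.25 in Control and 4.65, 4.53 and 4.14 in MA. Here too MA replicates 1 and 2 were above every Control library, while MA replicate 3 was inside the Control range. Its log2 fold change of 0.33 had a 95% interval of -0.01 to 0.67 (limma adjusted p = 0.495). With the same weights it was 0.43 with an adjusted p of 0.0487, where 4.4% of all tested genes passed. Without MA replicate 3 it was 0.48 with an adjusted p of 0.0664 (limma).

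Dnajc5, or cysteine-string protein alpha, protects SNAP-25 on synaptic vesicles. It was 5.47, 5.46 and 5.69 in Control and 5.85, 5.80 and 5.24 in MA, the same arrangement as for Dnajc6 at a smaller size. The log2 fold change was 0.09 (95% interval -0.31 to 0.48, limma adjusted p = 0.909), and 0.28 without MA replicate 3 (limma adjusted p = 0.134). Dnajc13, which works in endosomal sorting, did not share it. Its values were 3.95, 4.30 and 3.85 in Control and 3.58, 4.02 and 3.85 in MA, with a log2 fold change of -0.22 (95% interval -0.59 to 0.15, limma adjusted p = 0.692). The thalamic marker sum of 107 and 104 in MA replicates 1 and 2, against 55.9 in MA replicate 3 and at most 50.4 in Control, was also high in the pair of libraries in which Dnajc6, Dnajc27 and Dnajc5 were high. All 6 thalamic markers lay above every Control library in that pair, and only Calb2 and Lhx9 did in MA replicate 3. The 8 neuronal markers summed to 2272 and 2364 in that pair, 1799 in MA replicate 3 and 2091 to 2227 in Control. They did not move as 1, since 5 had a higher and 3 a lower mean in that pair than in Control. In that pair 1 of them lay above every Control library and 2, Neurod6 and Wfs1, lay below every one. The 4 endothelial markers summed to 88.3 and 76.8 in that pair, 62.5 in MA replicate 3 and 53.2 to 58.2 in Control. The part of these 3 marker lists in the values of these members was not tested.

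**Figure D3:**
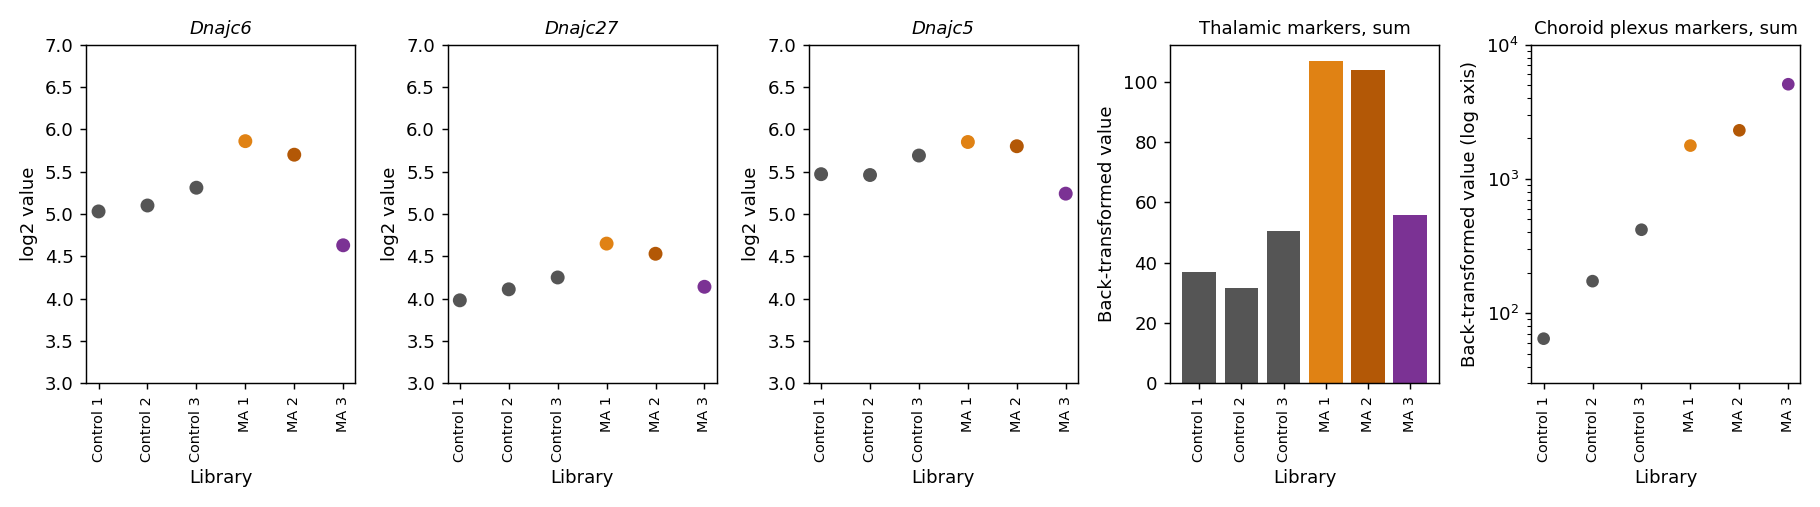
Log2 values of Dnajc6, Dnajc27 and Dnajc5 in each library, then the back-transformed sums of 6 thalamic and 5 choroid plexus marker genes, the last on a log axis. One mark or bar is 1 library. The genes and the thalamic sum are highest in MA replicates 1 and 2, and the choroid plexus sum is highest in MA replicate 3, at 5070. The choroid plexus sum is mostly Ttr, and Kl, Folr1 and Clic6 were highest in MA replicate 2.

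The arrangement of Dnajc6 and Dnajc5 recurred in other members. In 5 of the 35, Dnajc5, Dnajc6, Dnajc10, Dnajc16 and Dnajb14, MA replicates 1 and 2 both exceeded every Control library and MA replicate 3 was under every one, and Dnajc7 showed the opposite order. Over all tested genes these shares were 8.82% and 6.2%, against 14.3% and 2.86% of the members. By the mean of MA replicates 1 and 2, 11 members were above the Control mean with MA replicate 3 below it, 7 were below with MA replicate 3 above, 6 were above in both and 11 were below in both. The SD was larger in MA than in Control for 22 of the 35, or 62.9%, against 71.1% of all tested genes. Without MA replicate 3 the groups did not overlap for 10 members, 6 higher and 4 lower, against 42.9% of all tested genes, and 6 of the 35 had an unadjusted p under 0.05 (limma), against 23.3% of all tested genes.

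**Figure D4:**
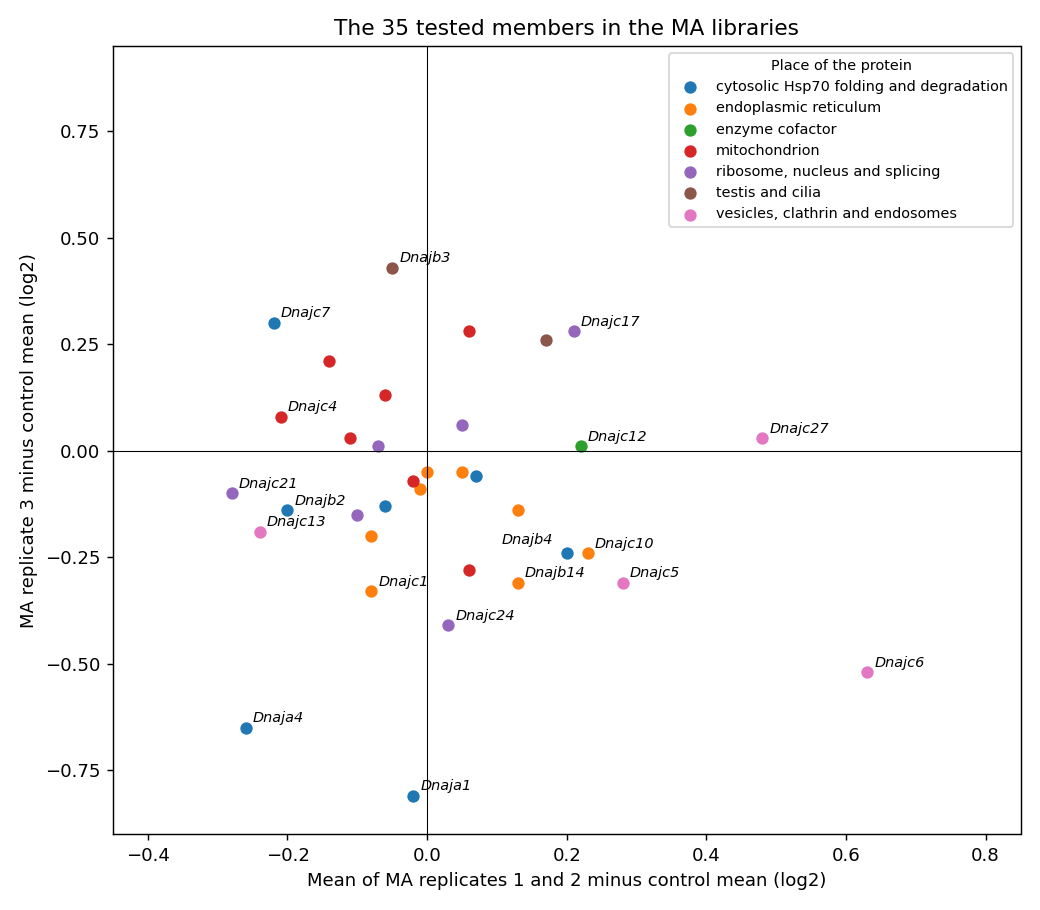
Each of the 35 tested members by the mean of MA replicates 1 and 2 minus the Control mean (x axis, log2) and by MA replicate 3 minus the Control mean (y axis, log2), colored by the place of the protein. The lower right quadrant, above Control in replicates 1 and 2 and below it in replicate 3, holds 11 members, with Dnajc6 furthest out at 0.63 and -0.52.

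Of the members tied to the endoplasmic reticulum, 8 were tested, and their log2 fold changes ran from -0.16 to 0.07 around a median of -0.02. Dnajc10, or ERdj5, a disulfide reductase that helps to clear misfolded proteins, was 3.86, 3.77 and 3.82 in Control and 4.13, 3.96 and 3.57 in MA, with a log2 fold change of 0.07 (95% interval -0.27 to 0.41). Dnajc1, a membrane J protein facing the lumen, was 2.52 ± 0.10 in Control and 2.36 ± 0.15 in MA (SD, n = 3 each), with a log2 fold change of -0.16 (95% interval -0.43 to 0.11). Dnajc14 was 3.87, 3.76 and 3.86 in Control and 3.75, 3.75 and 3.63 in MA. Every MA library was below every Control library, though Control replicate 2 was close to MA replicates 1 and 2, and the log2 fold change was -0.12 (95% interval -0.33 to 0.08, limma adjusted p = 0.685; exact permutation test, two-sided, p = 0.1, the smallest that 3 against 3 allows). Exons of other genes cover 19.9% of its exonic bases. Dnajc16 and Dnajc18 had log2 fold changes of 0.04 and -0.04, and the scarce Dnajc25, at a mean back-transformed value of 1.21, was at 0.02. Beside them, Hspa5 had a log2 fold change of -0.90, and the lumenal J proteins Dnajb11, Dnajc3 and Dnajb9 were at -0.51, -0.33 and -0.16, with overlapping groups for Dnajb9 (95% interval -0.42 to 0.09).

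Among the 7 mitochondrial members 5 were lower and 2 higher, between -0.12 and 0.13, and the median was -0.04 on the log2 scale. Dnajc19, part of the motor that pulls proteins into the matrix, was 5.63, 5.52 and 5.38 in Control and 5.48, 5.26 and 5.72 in MA, so the MA libraries enclosed the Control libraries, and the log2 fold change was -0.02 (95% interval -0.33 to 0.28, limma adjusted p = 0.972). A processed pseudogene matches Dnajc19 at 98.9% over 281 bases. Dnajc15, a paralog of Dnajc19, was level at 5.62 ± 0.03 in Control and 5.62 ± 0.12 in MA (SD, n = 3 each), for a log2 fold change of 0.00 (95% interval -0.20 to 0.21). Dnajc11, which is bound to the cristae-organizing complex, was at -0.06 (95% interval -0.30 to 0.18). Dnajc30, linked to repair of complex I, was at 0.13 (95% interval -0.12 to 0.39), with 26.2% of its exonic bases shared with Bud23 on the other strand. Dnajc4 was at -0.12 and Dnajc28 at -0.06, and their intervals of -0.41 to 0.18 and -0.35 to 0.24 also include 0.

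Of the 6 members of the ribosome, nucleus and splicing 4 were lower, and the median was -0.08 on the log2 scale. Dnajc21, which acts in maturation of the large ribosomal subunit, was 4.16 and 4.01 in Control replicates 1 and 2, just under the latter in Control replicate 3, and 3.68, 3.87 and 3.95 in MA. Every MA library was below every Control library, and the log2 fold change was -0.22 (95% interval -0.47 to 0.02, limma adjusted p = 0.521; exact permutation test, two-sided, p = 0.1). Dnajc2, a ribosome-bound co-chaperone of nascent chains, was at -0.12 (95% interval -0.37 to 0.13), and only MA replicate 2 lay inside the Control range. A processed pseudogene matches it at 96% over 625 bases. Dnajc17, a nuclear member tied to splicing, was 3.95, 3.89 and 4.40 in Control and 4.17, 4.42 and 4.36 in MA, where Control replicate 3 lay among the MA libraries. Its log2 fold change was 0.24 (95% interval -0.11 to 0.59, limma adjusted p = 0.651), and a processed pseudogene matches its transcript at 97% over 912 bases. Dnajc8, a spliceosome-associated member, and Dnajc9, a histone chaperone, were steady across the 6 libraries. Dnajc8 ran from 6.06 to 6.20 with a log2 fold change of 0.05, and its interval of -0.12 to 0.22 was the narrowest of the 35, with a processed pseudogene that matches it at 98.7% over 227 bases. Dnajc9 ran from 4.17 to 4.35, at -0.04. Dnajc24, needed for diphthamide on elongation factor eEF2, was 3.09, 3.06 and 3.05 in Control and 3.03, 3.16 and 2.66 in MA, at -0.12, and 0.03 without MA replicate 3.

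Dnajc7, a cytosolic member with TPR repeats that binds both Hsp70 and Hsp90, was the most abundant of class c, at a mean back-transformed value of 109. It was 6.81, 6.80 and 6.78 in Control, an SD of 0.02, and 6.47, 6.67 and 7.10 in MA. MA replicates 1 and 2 were below and MA replicate 3 above every Control library, for a log2 fold change of -0.05 (95% interval -0.40 to 0.30, limma adjusted p = 0.943). Without MA replicate 3 it was -0.22 (limma adjusted p = 0.145). Its exons overlap Cnp, a myelin gene, and Nkiras2 on the other strand over 9.07% of its exonic bases. The 4 oligodendrocyte markers summed to 3003 and 2581 in MA replicates 1 and 2, 3122 in MA replicate 3 and 2702 to 2917 in Control, and their part in the values of Dnajc7 was not tested. Dnajc12, the member closest to monoamine synthesis, binds the hydroxylases on the routes to dopamine, serotonin and tyrosine. It was 3.07, 3.14 and 3.46 in Control and 3.60, 3.29 and 3.23 in MA. Only MA replicate 1 was above the Control range, and the log2 fold change was 0.15 (95% interval -0.19 to 0.49, limma adjusted p = 0.778).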

How the data were processed

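Per the study's methods, the authors mapped read pairs using Hisat2, obtained gene counts from featureCounts and scaled them by gene length. The submitters' processing notes name Bowtie 0.12.2 instead, and which build was counted on is not settled by these sources. RPKM is the unit in the deposited table's name, but the values the authors deposited are logarithms, taken here as log2 with an offset of 1. All 6 libraries share 1 highest value, and above the median rank their sorted values differ by at most 0.0285. A normalization that made the libraries' distributions nearly equal thus came before deposit. Median centring and quantile normalization, among the alternatives below, could therefore change little. These log2 values were tested as deposited with limma 3.58.1 in R 4.3.3 (trend on the mean level, no covariate, Benjamini-Hochberg over 13321 genes). The test was checked on simulated data with the same spread in both groups and no library that stood apart. That check does not cover a library such as MA replicate 3. The study's own count test could not be run on these values. Members and gene lists were chosen with earlier results of these data known. Log2 fold changes were named by rule for 13 members (groups without overlap, unadjusted p under 0.05, highest level in a class, or a listed role), and the other members were added after their values were seen. Coordinates, exon overlap and near-identical transcripts (blastn 2.17.0, at least 95% identity over 200 bases) come from GENCODE M21 on GRCm38. Nothing states that mice with the same replicate number were paired. Alternatives were an offset of 0.1, no filter, a minimum mean of 5, median centring, quantile normalization, no trend, sample quality weights, a replicate block and leaving out each library.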

Additional observations from a re-analysis of the deposited data

How the results depend on the processing

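The count of 35 genes at an adjusted p under 0.05 over all tested genes was 3 with no filter, 20 with a minimum mean of 5, 586 with sample quality weights, 15 with the replicate block, and 0 to 257 with 1 library left out, the highest without MA replicate 3 and 0 without Control replicate 2, Control replicate 3 or MA replicate 2. The count of 0 members at an adjusted p under 0.05 was 1 with sample quality weights (Dnajc27) and 0 to 1 with 1 library left out (Dnajc6, without MA replicate 3). The 0 members at an unadjusted p under 0.05 (limma) became 6 of 35 with weights, against 26.3% of all tested genes. With 1 library left out they became 0 to 6, the highest without MA replicate 3, against 23.3% of all tested genes there. The 2 members whose groups do not overlap became 3 to 10 with 1 library left out. The highest was without MA replicate 3, against 42.9% of all tested genes there. The class b median of 0.03 was 0.08 with weights and -0.02 to 0.07 with 1 library left out. Same-numbered libraries deviated in opposite ways (r of -0.197, -0.242 and -0.337 across genes), and the replicate block gave 0 members past either threshold.

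Of 485 log2 fold changes of the 35 members under an alternative, 29 had the opposite sign, and 19 members kept their sign throughout. The 485 include values under both changed filters, no trend and the replicate block, which leave a difference of group means as it was. No sign could turn under those settings, so 29 of 485 is not a measure of how stable the signs are. With weights the members with the opposite sign were Dnajb3 (-0.03), Dnajb14 (0.11), Dnajc15 (-0.02), Dnajc24 (0.03), Dnajc25 (-0.05) and Dnajc28 (0.02). With quantile normalization Dnajc15 was at 0.00, with a change of sign below the printed digits. With 1 library left out the ranges that crossed 0 were Dnaja3 (-0.08 to 0.01), Dnajb3 (-0.06 to 0.24), Dnajb4 (-0.10 to 0.20), Dnajb12 (-0.04 to 0.01), Dnajb14 (-0.09 to 0.13), Dnajc5 (-0.03 to 0.28), Dnajc7 (-0.22 to 0.09), Dnajc9 (-0.07 to 0.01), Dnajc10 (-0.05 to 0.23), Dnajc11 (-0.11 to 0.02), Dnajc15 (-0.06 to 0.06), Dnajc16 (-0.03 to 0.13), Dnajc19 (-0.14 to 0.09), Dnajc24 (-0.22 to 0.03), Dnajc25 (-0.12 to 0.13) and Dnajc28 (-0.15 to 0.06). The causes were not tested. With 3 mice a group and unknown depth, differences within the intervals given above remain possible, and the intervals are not a detection limit. The p-values rest on these mice only.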
